A study of Oryza sativa Japonica Group with 3 samples.

Results

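The prolamins of rice were followed at the transcript level through imbibition and germination. A set of 10 locus IDs on 6 chromosomes had been listed by ID as prolamins of the 10, 13 and 16 kDa size classes. These 10 loci, of 55986 in the files, are described here. The rule that lists them uses no expression value, although the list was chosen with earlier results of these data known. The RNA came from seeds of the japonica rice landrace Jiucaiqing at 3 stages: dry seed (0 h), imbibed seed (24 h in distilled water) and germinated seed (48 h in distilled water). Seeds were kept at 30 °C, and each stage is 1 library into which 3 biological replicates were combined. No SD, p-value or replicate check can therefore be given, and every difference is one between single pooled libraries. The files pair no ID with a gene name, and which locus belongs to which size class is not given in the labels or files, so the name prolamin rests on the list, and loci are ordered by the chromosome stated in their ID.

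Prolamins are storage proteins of the cereal endosperm that dissolve in aqueous alcohol and are rich in glutamine and proline. In rice they are the minor storage fraction beside the glutelins. They are made during grain filling, enter the endoplasmic reticulum and accumulate there in round protein bodies, where the cysteine-rich classes are held by disulphide bonds. The endosperm reserves are broken down after germination, while transcripts present in a dry seed were made before the seed dried.

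Levels are given as FPKM, fragments scaled by transcript length and library total, with the isoforms of a locus summed, so that loci can be compared per length. The 10 loci together stood at 572 FPKM in dry seed, 417 FPKM in imbibed seed and 281 FPKM in germinated seed. The 10 listed loci were thus a small part of each library, with 0.0649% of the summed FPKM at 0 h, 0.0719% at 24 h and 0.0525% at 48 h. Since the files name no gene, any prolamin outside the list is not counted. As deposited, the level was lower at each later stage, whereas the share of the library was highest at 24 h. In whole seeds, fewer cells of a type and less RNA per cell cannot be told apart.

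Of the 10 loci, 9 were above 0 in dry seed and 8 at each later stage. Abundance spanned a wide range: 2 loci reached 100 FPKM in any library, 7 were at 1 FPKM or more in every library, and 1, LOC_Os05g26720, was at 1 FPKM or more in dry seed alone. The other 2 were never at 1 FPKM. LOC_Os06g31060, with 2 listed isoforms, was listed at 0 in all 3 libraries. LOC_Os12g16880 had 0.29 FPKM in dry seed and was listed at 0 in both later libraries, so no fold is given for it. A listed 0 can be a failed estimate, and near-identical prolamin copies may share reads, so a low copy is less certain than the sum.

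**Figure D1:**
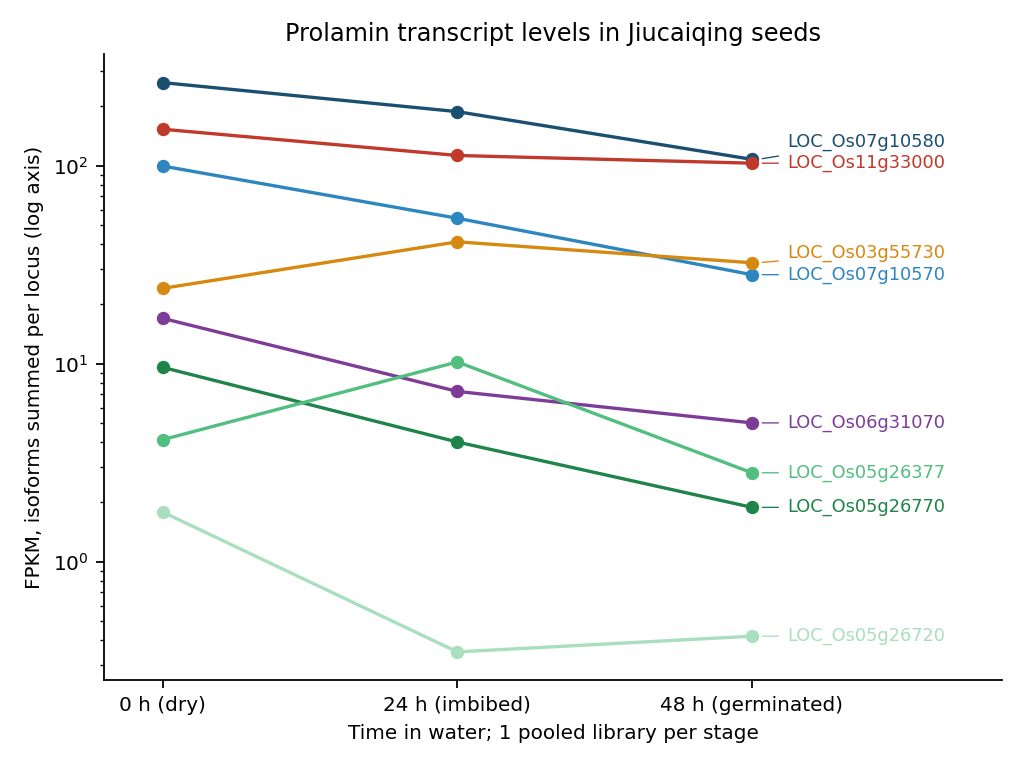
FPKM (log axis) of the 8 prolamin loci that reached 1 FPKM in any library, by time in water; each point is 1 pooled library and lines join the points of a locus. LOC_Os07g10580 is the highest at every stage, with 263, 187 and 108 FPKM, and LOC_Os11g33000 lies close to it at 48 h with 103 FPKM; LOC_Os03g55730 and LOC_Os05g26377 are the loci that peak at 24 h.

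The adjacent IDs LOC_Os07g10570 and LOC_Os07g10580 on chromosome 7 held most of the prolamin sum in dry seed. LOC_Os07g10580 had 263, 187 and 108 FPKM in dry, imbibed and germinated seed, and ranked 378th, 353rd and 543rd among all loci. LOC_Os07g10570 had 99.6, 54.2 and 28.1 FPKM, with ranks of 1005, 1412 and 2287. Both loci were lower at each later stage. At 48 h, LOC_Os07g10570 kept 28.3% of its dry-seed level and LOC_Os07g10580 kept 41.0%. Their ratio within a library, which no scaling between libraries can move, shows the same order: LOC_Os07g10570 stood at 37.9%, 28.9% and 26.2% of LOC_Os07g10580 at the 3 stages. Together they made up 63.4% of the prolamin sum in dry seed, 57.9% in imbibed seed and 48.3% in germinated seed.

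LOC_Os11g33000 on chromosome 11, the second most abundant prolamin locus at each stage, kept more of its level. It had 153, 113 and 103 FPKM in dry, imbibed and germinated seed. That left 73.7% of the dry-seed level at 24 h and 67.4% at 48 h, and 91.4% of the 24 h level at 48 h. Its ranks among all loci were 657, 614 and 571. Beside LOC_Os07g10580 it stood at 58.1% in dry seed, 60.1% in imbibed seed and 95.6% in germinated seed, where both had nearly the same level. Its share of the prolamin sum was 26.7%, 27.0% and 36.6% at the 3 stages.

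LOC_Os03g55730 on chromosome 3 was, as deposited, the one prolamin locus with a higher level at 48 h than in dry seed; with each library scaled to the same sum, LOC_Os11g33000 and LOC_Os05g26377 were higher at 48 h too, with log2 differences of 0.15 and 0.13. It had 24.0, 41.2 and 32.3 FPKM in dry, imbibed and germinated seed, and its share of the prolamin sum was 4.20%, 9.88% and 11.5%. It has 3 listed isoforms, of which LOC_Os03g55730.1 carried between 98.1% and 98.9% of the locus in every library. Set against LOC_Os11g33000 within a library, it stood at 15.7%, 36.6% and 31.4%. Its level in imbibed seed was 172% of that in dry seed, short of 2-fold.

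The prolamin loci of chromosomes 5 and 6 were low throughout, and 3 of them had their highest level in dry seed. LOC_Os06g31070 on chromosome 6 had 16.9, 7.24 and 5.02 FPKM in dry, imbibed and germinated seed. LOC_Os05g26770 had 9.58, 4.02 and 1.88 FPKM, which left 19.6% of the dry-seed level at 48 h. LOC_Os05g26720 had 1.78, 0.35 and 0.42 FPKM. At 24 h these 3 loci kept 42.7%, 42.0% and 19.7% of their dry-seed level, in the order given, so most of the difference was in place after the first day. LOC_Os05g26377 had another profile, with 4.13, 10.2 and 2.81 FPKM: 247% of the dry-seed level at 24 h, and 27.5% of the 24 h level at 48 h. Since its peak offset the other 2 loci of chromosome 5, the sum over that chromosome was nearly level at first, with 15.5, 14.6 and 5.11 FPKM.

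**Figure D2:**
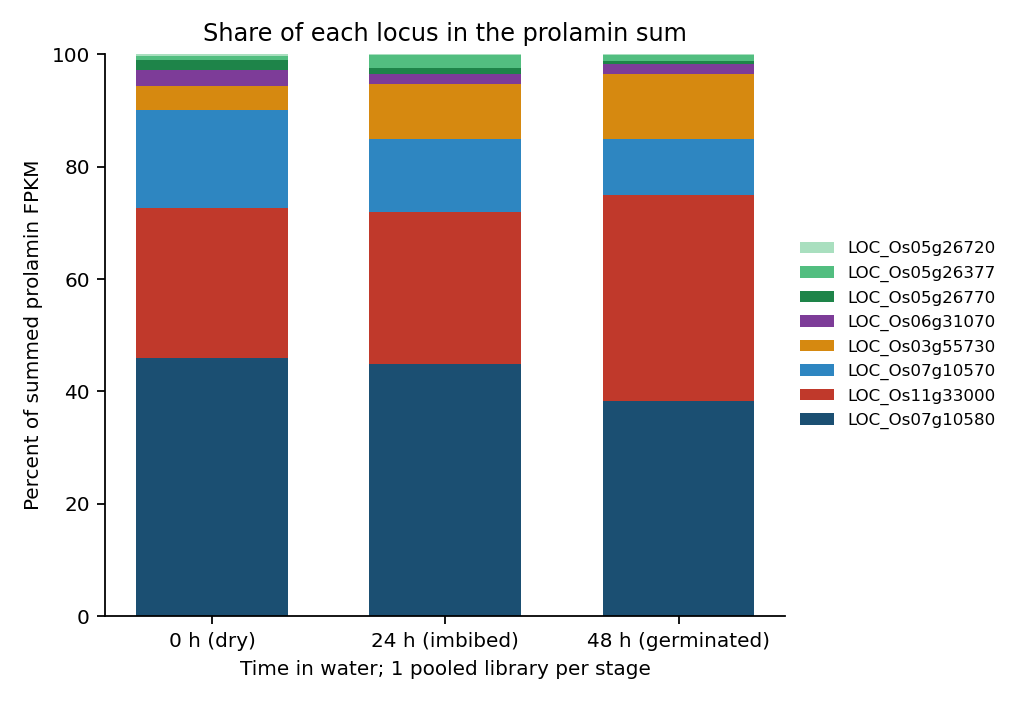
Percent of the summed prolamin FPKM held by each locus (vertical axis), by time in water, 1 pooled library per stage. The share of LOC_Os07g10580 and LOC_Os07g10570 together is 63.4%, 57.9% and 48.3% at the 3 stages, that of LOC_Os11g33000 is 26.7%, 27.0% and 36.6%, and that of LOC_Os03g55730 is 4.20%, 9.88% and 11.5%.

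The make-up of the summed FPKM of the listed prolamins moved away from chromosome 7. LOC_Os07g10580, LOC_Os11g33000 and LOC_Os07g10570, the 3 most abundant loci by mean over the libraries, held 90.1% of the sum in dry seed and 84.9% at both later stages. At 48 h, LOC_Os03g55730 with 32.3 FPKM stood above LOC_Os07g10570 with 28.1 FPKM. The other 7 loci summed to 56.7, 63.1 and 42.5 FPKM. Between 0 h and 24 h the share that grew most was that of LOC_Os03g55730, and between 24 h and 48 h that of LOC_Os11g33000.

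Differences between stages were read on log2(FPKM + 1), later minus earlier, and a locus was called higher or lower at 2-fold or more on that scale. The first step is 24 h against 0 h, the second step 48 h against 24 h, and the whole course 48 h against 0 h. Of the 10 loci, 8 reached 1 FPKM in any library and could be called. The counts below are of those 8, and LOC_Os05g26720, which entered through its dry-seed value alone, was bound to differ.

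At the first step, 3 of the 8 prolamin loci were at least 2-fold lower and 1 was at least 2-fold higher, against 15.4% lower and 17.7% higher among the 20915 loci tested, and 36.9% lower and 19.7% higher among the 827 loci with a mean of 100 FPKM or more. The lower loci were LOC_Os06g31070, with a log2 difference of -1.12, LOC_Os05g26770 with -1.08 and LOC_Os05g26720 with -1.04, all just past the limit. The higher locus was LOC_Os05g26377, with 1.13. Over the 7 loci found at 1 FPKM or more in every library, the counts were 2 lower and 1 higher. The abundant prolamins did not reach the limit: the log2 difference was -0.86 for LOC_Os07g10570, -0.49 for LOC_Os07g10580 and -0.44 for LOC_Os11g33000, and it was 0.76 for LOC_Os03g55730. The median of the 8 loci was -0.67, against 0.06 over all loci tested and -0.46 over the 827 abundant loci. With each library scaled to the same sum, 0 of the 8 were lower and 2 were higher, against 8.20% and 28.6% of all loci. With a pseudocount of 5 FPKM 0 passed in either direction, against 8.41% lower and 8.11% higher among all loci.

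At the second step, from imbibed to germinated seed, 1 of the 8 prolamin loci was at least 2-fold lower and 0 were at least 2-fold higher, against 10.9% and 13.8% of all loci tested, and 41.5% and 7.86% of the abundant loci. The lower one was LOC_Os05g26377, with a log2 difference of -1.56, which left it below its dry-seed level. Negative differences short of the limit were measured for 6 other loci. They were -0.92 for LOC_Os07g10570, -0.80 for LOC_Os05g26770, -0.80 for LOC_Os07g10580, -0.45 for LOC_Os06g31070, -0.34 for LOC_Os03g55730 and -0.13 for LOC_Os11g33000. LOC_Os05g26720, under 1 FPKM in both libraries, had 0.07. The median of the 8 was -0.62, and -0.80 without LOC_Os05g26720, against 0.02 over all loci and -0.65 over the abundant loci. The call of LOC_Os05g26377 ended with a pseudocount of 5 FPKM, at -0.96.

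Over the whole course, 4 of the 8 prolamin loci were at least 2-fold lower and 0 were at least 2-fold higher, against 20.4% and 27.5% of all loci tested, and 45.8% and 19.8% of the abundant loci. The share of prolamins called lower was near that of abundant loci. Of the 4 called lower, LOC_Os07g10580 alone reached 100 FPKM in any library, so the abundant loci are not matched in level to the others. The 4 were LOC_Os05g26770 with a log2 difference of -1.88, LOC_Os07g10570 with -1.79, LOC_Os06g31070 with -1.58 and LOC_Os07g10580 with -1.28. Both chromosome 7 loci passed 2-fold over the whole course with neither step past it, which was found for 4.54% of all loci. LOC_Os05g26720 had -0.97, just short of the limit, although 23.6% of its FPKM was left, because the pseudocount weighs on so low a locus. LOC_Os11g33000 had -0.57, LOC_Os05g26377 -0.43 and LOC_Os03g55730 0.41. The median of the 8 was -1.12, and -1.28 without LOC_Os05g26720, against 0.18 over all loci and -0.63 over the abundant loci. Scaled to the same sum, 2 of the 8 were lower, LOC_Os05g26770 and LOC_Os07g10570, and 1 was higher, LOC_Os03g55730. Among all loci, 11.8% were then lower and 41.2% higher.

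**Figure D3:**
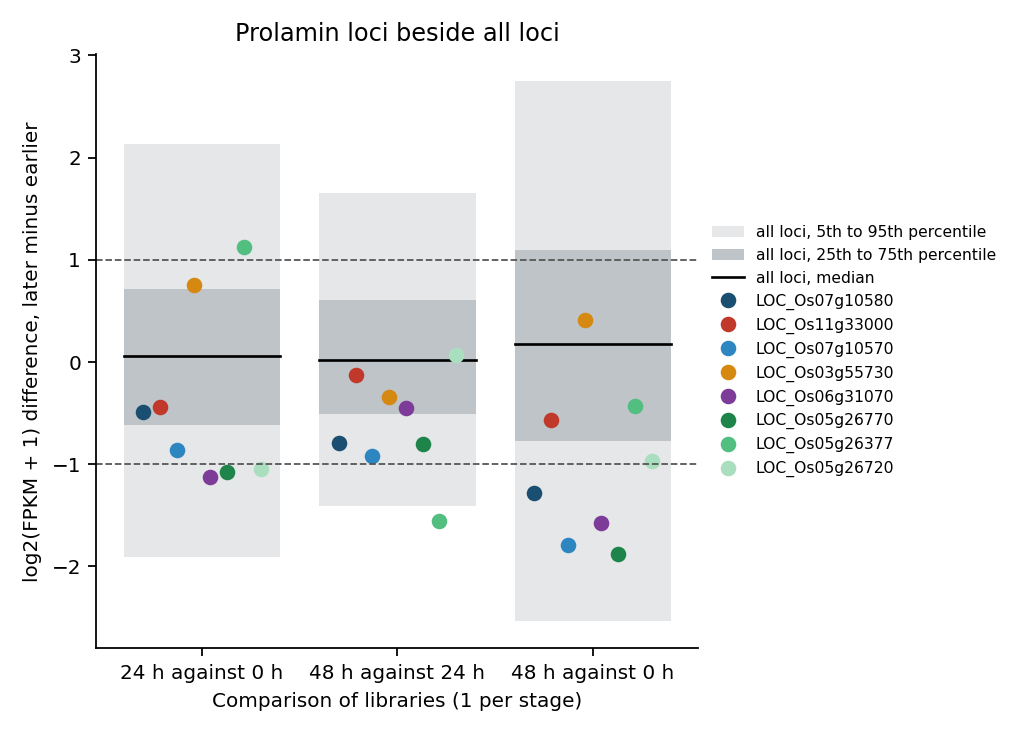
Difference in log2(FPKM + 1), later minus earlier (vertical axis), of the 8 prolamin loci in 3 comparisons of single pooled libraries, over bands that hold the middle of the 20915 loci tested; dashed lines mark 2-fold. Below 0 lie 6 of the 8 points for 24 h against 0 h and 7 of 8 in each other comparison, and all points are inside the band from the 5th to the 95th percentile apart from LOC_Os05g26377 for 48 h against 24 h (-1.56).

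By profile, as deposited, 6 of the 8 loci had their highest FPKM in dry seed, 2 at 24 h and 0 at 48 h, where all loci tested divided into 36.5%, 24.0% and 39.6%. The 6 include LOC_Os05g26720, which was at 1 FPKM or more in dry seed alone, so its dry-seed peak was fixed by the filter. A level lower at each later stage than at the one before was found for 5 of the 8, against 24.7% of all loci. These 5 were LOC_Os05g26770, LOC_Os06g31070, LOC_Os07g10570, LOC_Os07g10580 and LOC_Os11g33000. Neither step passed 2-fold for 4 of the 8, against 51.9% of all loci. With each library scaled to the same sum, a check chosen after seeing the data, 4 of the 8 peaked in dry seed and 4 in imbibed seed, against 21.8% and 29.1% of all loci. The stepwise lower profile then held for 3 of the 8, against 15.0% of all loci. These shares describe 3 libraries, and related copies are not independent of each other.

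How much lower the prolamin sum was depends on how the libraries are set against each other. As deposited, 73.0% of the dry-seed sum was left at 24 h and 49.2% at 48 h. The log2 difference was -0.45 at the first step, -0.57 at the second and -1.02 over the whole course. Without LOC_Os07g10580, the most abundant locus, the whole course gave -0.83 and was no longer past 2-fold. The summed FPKM of all loci was 881252, 580571 and 535327 in dry, imbibed and germinated seed, so scaling to the same sum multiplies values by 0.755, 1.15 and 1.24. The prolamin sum was then 432, 479 and 349.6 FPKM. Its direction at the first step turned, with a log2 difference of 0.15, and the whole course gave -0.30.

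**Figure D4:**
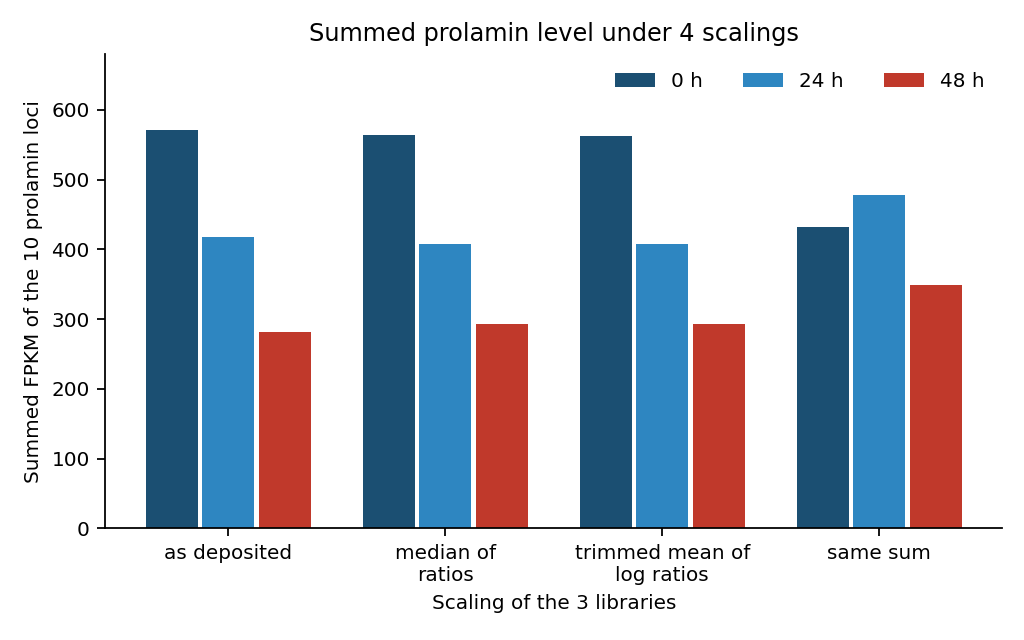
Summed FPKM of the 10 prolamin loci (vertical axis, from 0) at 0, 24 and 48 h as deposited and under 3 scalings of the libraries, 1 pooled library per bar. The sum is lower at each later stage as deposited (572, 417 and 281 FPKM) and under the scalings by median of ratios (563, 407 and 293 FPKM) and trimmed mean of log ratios (562, 407 and 293 FPKM), while with the same sum per library it is highest at 24 h (479 FPKM).

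The same-sum scaling also moves the median of all loci, which was 0.06 as deposited and 0.45 rescaled at the first step, and 0.18 and 0.72 over the whole course. Setting a difference relative to that median removes a library's multiplier apart from the effect of the pseudocount, so values that come out alike under several scalings do so by construction. Relative to the median, the prolamin sum stood at -0.52 as deposited and -0.30 with the same sum at the first step, and at -1.20 and -1.03 over the whole course. LOC_Os11g33000, whose own whole-course difference was -0.57 as deposited and 0.15 with the same sum, stood at -0.74 and -0.58 relative to the median. LOC_Os03g55730 stood above the median over the whole course under both, at 0.24 and 0.38. As deposited, the number of loci below the median was 6 of 8 at the first step and 7 of 8 at the second step and over the whole course.

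Loci near the prolamins in ID order had mixed courses. The 5 listed IDs on either side of each locus gave 74 other loci, of which 33 were listed at 0 in all 3 libraries and 22 could be called. Over the whole course, 4 of the 22 were at least 2-fold lower and 8 at least 2-fold higher, with a median of -0.01. Among all loci tested, 20.4% were lower and 27.5% higher, with a median of 0.18. Of these neighbours, 2 reached 100 FPKM. LOC_Os03g55670 had 154, 139 and 52.1 FPKM in dry, imbibed and germinated seed, and was at least 2-fold lower at the second step, with a log2 difference of -1.40. LOC_Os07g10600, close to LOC_Os07g10580 in ID, was higher where the prolamins beside it were lower, with 46.6, 42.7 and 101 FPKM and a log2 difference of 1.23 at the second step.

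Likeness to the prolamin sum was measured as the Euclidean distance between the log2 differences of both steps, over 3 libraries and 999 other loci with at least 100 FPKM in dry seed. The 3 nearest were LOC_Os04g44870, LOC_Os06g51060 and LOC_Os09g34910. LOC_Os04g44870 lay at a distance of 0.016, with 202, 146 and 97.4 FPKM in dry, imbibed and germinated seed. LOC_Os06g51060 lay at 0.036, with 147, 109 and 74.3 FPKM, and LOC_Os09g34910 at 0.15, with 264, 211 and 147.5 FPKM. Within a distance of 0.25 there were 17 loci, or 1.70% of the 999. The median whole-course difference of the 999 was -2.05, beside -1.28 for LOC_Os07g10580 and -0.57 for LOC_Os11g33000, the prolamins of that dry-seed level. A set chosen for a high dry-seed level can lie lower elsewhere through that choice, and how much of the median comes from it was not tested.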

How the data were processed

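The authors deposited 1 table of FPKM per library, to 2 decimals, 1 value per isoform; per the file headers the values come from isoform-level results. The submitters' processing notes name FastQC, RSEM 1.1.11 and edgeR 2.3.52 but no roles. For build, annotation and scaling between libraries, the answer is the same: not given in the sources used here. Values of similar copies depend on how shared reads were divided. Read totals are not in the files. The commonest ratio between low values (0.5 to 2 FPKM), an estimate that favours 1, put the worth of 1 read at 1.09 times the dry-seed worth in the 24 h library and 1.06 times in the 48 h library.

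Isoforms were summed per locus, and 20915 loci that reached 1 FPKM in any library were kept. With 1 library per stage no test was run: calls use a 2-fold rule on log2(FPKM + 1), a scale that understates changes of low loci. Other loci were named by rule: the 3 nearest to the prolamin sum, and ID neighbours reaching 100 FPKM. LOC_Os05g26480 and LOC_Os12g16890 were picked after their values were seen, and so was the interval from LOC_Os05g26377 to LOC_Os05g26770. Of the 10 IDs, and of 6 other loci planned by name, 0 matched the RefSeq table (ASM3414082v1), so those 6 are not reported. Alternatives were pseudocounts, filters, a 4-fold rule, the main isoform and 3 scalings. Members and lists were chosen with earlier results of these data known. Python 3.11.15, numpy 2.4.6, pandas 2.3.3 and matplotlib 3.10.9 were used.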

Additional observations from a re-analysis of the deposited data

How the results depend on the processing

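No paired analysis was possible because there is a single pooled library per stage, and none could be dropped as a replicate. Of 96 alternative values for the counts, sums and medians of the prolamin loci, 77 kept their direction and side of 2-fold or, for counts, stayed within 1.5 times. Some of these could not move. On log2(FPKM + 1) a locus always under 1 FPKM cannot pass 2-fold, so leaving out the filter repeats the main counts. Taking the main isoform changes nothing for a locus with 1 listed isoform. The 77 therefore overstates how stable the values are. Scaling to the same sum gave a prolamin sum at 0.15 for the first step and -0.30 for the whole course, a whole-course median of -0.59, 0 lower and 2 higher loci at the first step, and 2 lower and 1 higher over the whole course. It also turned LOC_Os07g10580 (0.11) and LOC_Os11g33000 (0.16) at the first step, and LOC_Os05g26377 (0.13) and LOC_Os11g33000 (0.15) over the whole course. The whole-course sum was -0.94 by median of ratios, -0.94 by trimmed mean and -0.83 without LOC_Os07g10580. A pseudocount of 5 FPKM gave 0 lower and 0 higher at the first step and a whole-course median of -0.82. At the second step it gave 0 lower, against 5.49% of all loci. A pseudocount of 0.1 FPKM gave 2 lower at the second step, against 15.6% of all loci. At 4-fold, 0 prolamin loci were called in any comparison, where between 1.98% and 10.3% of all loci were called in each direction. Of 144 alternative values of single loci, 126 kept direction and side, a number that includes main-isoform values that repeat the main ones for loci with 1 listed isoform.

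Over all loci, given as lower then higher, the first step had 3213 and 3701 calls, the second 2274 and 2883, and the whole course 4265 and 5760. In that order these became 947 and 1205, 415 and 668, then 1609 and 2164 at 4-fold, and 1759 and 1696, 1149 and 945, then 2638 and 2509 with a pseudocount of 5 FPKM. With the same sum, the first step had 1716 and 5975 and the whole course 2471 lower. A pseudocount of 0.1 FPKM made 5553 higher at the first step. A filter of 5 FPKM left 1697 higher at the second step and 3641 over the whole course, out of fewer loci tested. As shares of the loci tested these were 12.8% and 27.6%, beside 13.8% and 27.5% with the filter of 1 FPKM. Without read totals, no counting error can be given for a low locus.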

Other observations

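The loci LOC_Os05g26480 and LOC_Os12g16890 were picked after their values were seen, and the files name neither. LOC_Os05g26480 has an ID between LOC_Os05g26377 and LOC_Os05g26770, outside the 5 listed IDs on either side of any prolamin locus. It had 95.4, 23.8 and 14.6 FPKM in dry, imbibed and germinated seed, above the 3 prolamin loci of that chromosome in each library, with a log2 difference of -2.62 for 48 h against 0 h. LOC_Os12g16890, the ID after LOC_Os12g16880, had 29.3, 13.6 and 6.17 FPKM, with -2.08. Both were lower at each later stage, and at 48 h they kept 15.3% and 21.0% of their dry-seed level. Among the prolamin loci, LOC_Os05g26770 kept 19.6%, LOC_Os05g26720 23.6%, LOC_Os07g10570 28.3%, LOC_Os06g31070 29.6% and LOC_Os07g10580 41.0%. The other prolamin loci that could be called kept 67.4% or more. Of the 37 IDs in that chromosome 5 interval outside the prolamin list, LOC_Os05g26480 included, 18 were listed at 0 in all libraries. A further 7 could be called, of which 3 were at least 2-fold lower and 2 at least 2-fold higher for 48 h against 0 h, beside 20.4% and 27.5% of all loci tested. The counts were 4 lower and 1 higher for 24 h against 0 h, beside 15.4% and 17.7%, then 0 lower and 2 higher for 48 h against 24 h, beside 10.9% and 13.8%. The interval itself was chosen after the data were seen, and its lower counts against 0 h include LOC_Os05g26480, picked for its values. Loci in it that reached 1 FPKM in dry seed alone were bound to be lower later. No result for the region can be drawn from these counts.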
